A study of Rattus norvegicus with 12 samples.

Results

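The 10 genes described here code for proteins of the axonal skeleton and for proteins whose loss, cleavage or release marks injured axons. They were taken by symbol from a table of 17494 genes, and all 10 were found there: Nefl, Nefm, Nefh, Ina, Uchl1, Sptan1, Sarm1, Nmnat2, Gap43 and Stmn2. RNA was extracted from brain tissue, the hippocampus by the study's methods, of 12 male wild-type Long Evans hooded rats, 1 rat per library, and sequenced after ribosomal RNA depletion. All rats were exposed to blast 3 times at 10 weeks of age and were killed 29 weeks later. Of these, 6 rats received chow containing boldine, an alkaloid of the boldo tree, at 500 mg per kg of chow (blast-boldine), and 6 received the same chow without boldine (blast-control). No unexposed rats were among the libraries, so the comparison addresses boldine given after blast and not blast itself.

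Neurofilaments are heteropolymers of a light (Nefl), a medium (Nefm) and a heavy (Nefh) chain with alpha-internexin (Ina), and they fill and widen axons of the central nervous system. Neurofilament light chain, the ubiquitin hydrolase UCH-L1 (Uchl1) and breakdown products of alpha-II spectrin (Sptan1) are released from injured neurons and are measured in blood or cerebrospinal fluid after brain trauma. Inside a cut or stressed axon, loss of the labile NAD-synthesising enzyme NMNAT2 activates SARM1, an NAD-cleaving enzyme that drives axon degeneration. GAP-43 and stathmin-2 (Stmn2) act in growth cones and regrowing axons.

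The libraries of 11 rats held between 10148474 and 40850106 counts, and 3 counts in them corresponded to 0.0658 to 0.307 CPM (counts scaled to a common library size, with TMM correcting for composition). The library of blast-control rat 6 held only 74008 counts, in which 3 counts made 47.5 CPM, so every comparison was repeated without it. The libraries also fell into 2 sets of 6, each with 3 rats of either group: set 1 held rats 1, 7, 9, 20, 32 and 35 and set 2 held rats 4, 5, 6, 12, 17 and 19. The sets were inferred from repeated library suffixes, on the assumption that rat numbers rise with the suffix within each set. Of the 4 assignments that this assumption allows, the one used was chosen from the expression values. It accounted for 94.9% of the first principal component of the 11 deeper libraries, which held 68.6% of the variance. Differences between the sets are therefore given as a description with no test. Of 6 markers of the hippocampal formation, all but Spink8 passed the filter on low counts, and their sum lay between 1067 and 1567 CPM in the 11 rats. Because the tissue was bulk, fewer neurons and less RNA per neuron cannot be told apart.

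No member passed the test between blast-boldine and blast-control rats after adjustment over all genes. In the comparison of all 12 rats (edgeR quasi-likelihood test, two-sided), 0 of 12325 genes tested passed an adjusted p of 0.05 (0.00%), and the adjusted p of each member was 1.0. At an unadjusted p under 0.05 there were 132 genes (1.07%), none of them a member, and by DESeq2 85 of 15690 genes (0.542%), again without a member. The fitted log2 fold change was negative for 8 members and positive for 2, with a median of -0.13 against 0.00 over all genes. Without rat 6, 175 of 12529 genes (1.40%) and no member had an unadjusted p under 0.05, and the median over the members was -0.07. With library set as a covariate the count was 474 genes (3.85%) and no member. With both changes it was 670 genes (5.35%), among them 2 of the 10 members, Nefl and Sarm1, each at an adjusted p of 0.898. No member separated the groups completely in the 12 rats, where 10 genes did (0.0811%), or in the 11 rats, where 17 did (0.136%).

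**Figure D1:**
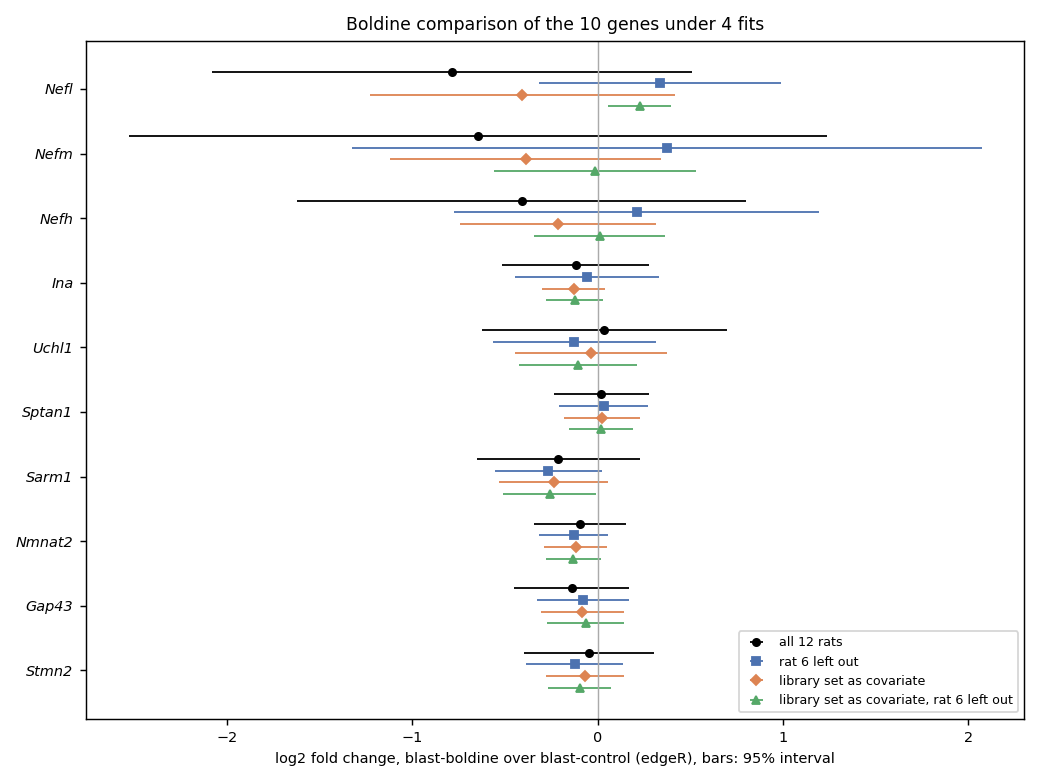
Log2 fold change of blast-boldine over blast-control rats (x axis) for each of the 10 genes (y axis) in 4 edgeR fits, with 95% intervals as bars. The intervals of the neurofilament chains were widest with all 12 rats, from -2.53 to 1.24 for Nefm, and the estimates for Nefl, Nefm and Nefh changed sign once rat 6 was left out without a covariate.

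Levels were compared per kilobase of exon over the 11 deeper libraries. Nefl had the highest mean of the 10 at 495 ± 183 CPM per kb (mean ± SD), followed by Uchl1 at 366 ± 87.5 and Sptan1 at 327 ± 33.0. Nefl lay above Uchl1 in only 5 of the 11 rats. Uchl1 had the higher mean in set 1, at 415 against 343 CPM per kb. In set 2 without rat 6 Nefl had the higher mean, at 676 against 308 CPM per kb. Nefl ranked 26th of 12325 tested genes on this scale. Nefm followed at 141 ± 117 CPM per kb, Stmn2 at 127 ± 16.97, Gap43 at 84.2 ± 9.56, Nefh at 81.6 ± 44.8, Ina at 59.6 ± 12.05 and Nmnat2 at 58.5 ± 4.31. Sarm1 was the least abundant at 8.44 ± 1.45 CPM per kb. The ranges over rats of neighbours in this order of means overlapped, except that the lowest Stmn2 value lay just above the highest Gap43 value and Nmnat2 lay above Sarm1 in every rat. Nefm lay above Stmn2 in only 5 of the 11 rats.

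Of the neurofilament chains, Nefl showed the largest effect of a single library. The Nefl gene has 4 exonic blocks at chr15:42301920-42305793 on the plus strand of mRatBN7.2, the build of all gene positions given here, and Nefm, with 3 blocks at chr15:42360450-42365744 on the minus strand, lies 54656 bases away. In the blast-boldine rats Nefl ranged from 706 to 1549 CPM with a median of 1062, and in the blast-control rats from 575 to 7445 CPM with a median of 986. The highest value belonged to rat 6, and the ranges overlapped. The means were 1107 ± 405 and 1971 ± 2697 CPM (SD, n = 6 each), and the fitted log2 fold change was -0.79 (SE 0.60, 95% interval -2.08 to 0.51). With that library left out, the 5 remaining controls averaged 877 ± 321 CPM and the log2 fold change turned to 0.34 (SE 0.30). The direction of the Nefl comparison thus depended on rat 6.

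Within the library sets the Nefl values lay closer together. In set 1 the blast-boldine rats had 781, 706 and 742 CPM and the blast-controls 612, 575 and 755 CPM, so that 2 of 3 controls lay below every treated rat. In set 2 the blast-boldine rats had 1519.7, 1549 and 1343 CPM and the blast-controls other than rat 6 had 1224 and 1217 CPM, with no overlap. That separation is of 3 against 2 rats, and no share of all genes separating in set 2 is given. No member separated the groups the same way in both sets without rat 6. Of 12529 genes tested, 43 did so higher and 87 lower. With library set as a covariate and rat 6 left out, the Nefl log2 fold change was 0.23 (SE 0.08, 95% interval 0.06 to 0.40, unadjusted p = 0.0134, adjusted p = 0.898 by edgeR). The exact two-sided permutation test within the sets gave p = 0.030 over 200 assignments, 1 of 10 such tests. With rat 6 kept, the same exact test over 400 assignments gave p = 0.99.

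The medium and heavy chains, whose long tails extend from the filament, varied more among rats than the light chain. Nefm ranged from 85.0 to 896 CPM in blast-boldine rats with a median of 476, and from 90.3 to 3009.8 CPM in blast-control rats with a median of 396. The values of either group fell into a low and a high cluster, which were the 2 library sets. Its log2 fold change was -0.65 (SE 0.87) with all rats, 0.37 (SE 0.78) without rat 6 and -0.01 (SE 0.25) with library set as a covariate and rat 6 left out. Nefh (chr14:79830362-79840347, minus strand, 4 exonic blocks) ranged from 146 to 559 CPM with a median of 310 in blast-boldine and from 155 to 1473 CPM with a median of 263 in blast-control rats. The groups overlapped, and without rat 6 the highest control value was 588 CPM. The Nefh log2 fold change was -0.41 (SE 0.56), 0.21 (SE 0.45) without rat 6 and 0.01 (SE 0.16) with library set as a covariate and rat 6 left out.

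Alpha-internexin is the fourth partner of the filament. With rat 6 left out, its estimate within either set had the opposite sign to that of Nefl, and with rat 6 kept both were negative in set 2. Ina (chr1:245896775-245908330, plus strand, 3 exonic blocks) ranged from 151 to 252 CPM with a median of 192 in blast-boldine and from 168 to 285 CPM with a median of 202 in blast-control rats. In set 1 the 165, 154 and 151 CPM of the treated rats lay below the 168, 174 and 187 CPM of the controls. No share of all genes separating in set 1 is given, so this is a description only. In set 2 the 224, 219.8 and 252 CPM of the treated rats overlapped the controls' 267, 217 and 285 CPM. The log2 fold change was -0.12 (SE 0.18), and -0.12 (SE 0.07) with library set as a covariate and rat 6 left out. The smallest exact permutation p for Ina, within the sets with all rats, was 0.065.

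**Figure D2:**
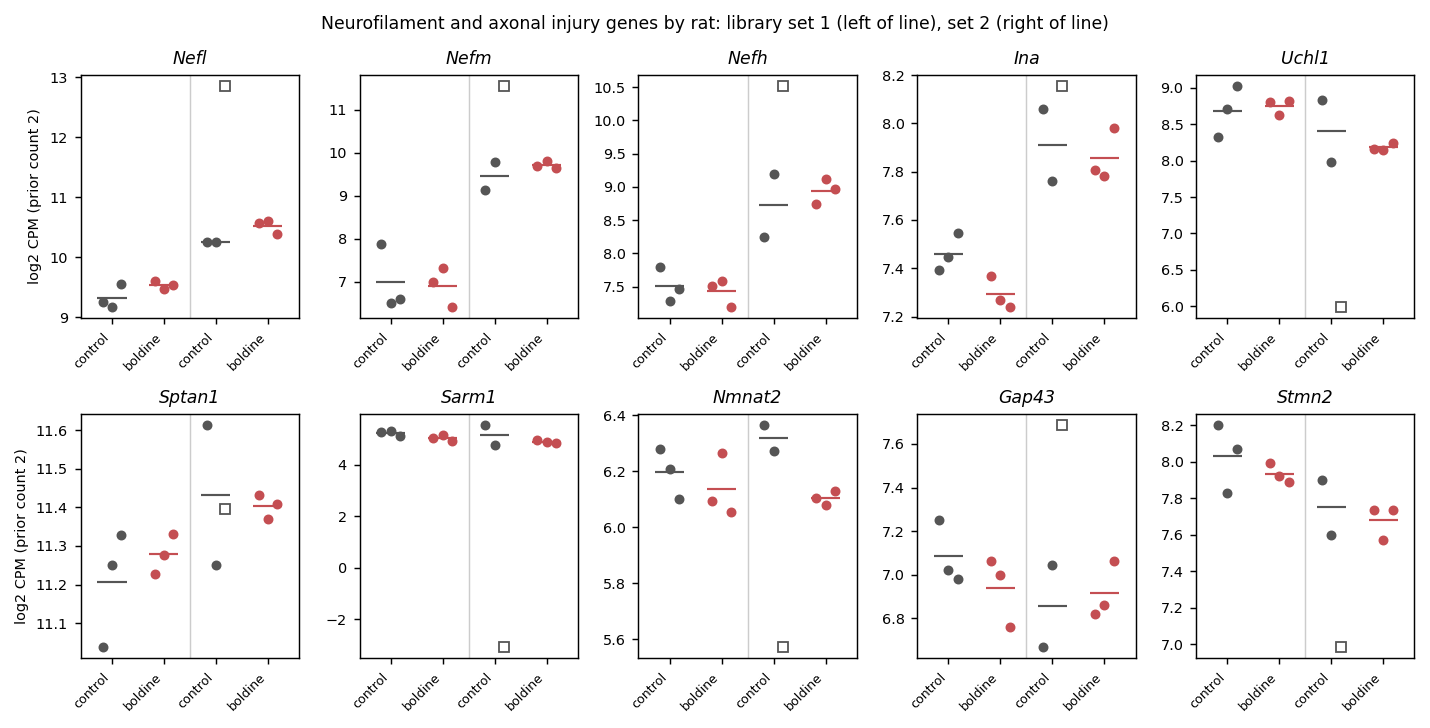
Log2 CPM (y axis, prior count 2) of the 10 genes in each rat, blast-control in grey and blast-boldine in red, library set 1 left and set 2 right of the line; horizontal bars are means without rat 6, which is the open square. Rat 6 was the highest library for Nefl, Nefm, Nefh, Ina and Gap43, and the square for Sarm1 stands for 0 counts, so its height is set by the prior count.

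In rat 6 the neurofilament chains took a large share of few counts. Nefl had 470 counts there, 0.635% of the library against 0.0619 to 0.147% in the other rats, and its 7445 CPM (95% Poisson interval 6787 to 8149.9, counting error only) was 4.81 times the highest other value. Nefm had 190 counts, 3.36 times the highest other rat in CPM, and Nefh 93 counts, 2.51 times. Ina had 18 counts (285 CPM, interval 169 to 451), near the 267 CPM of the highest other rat. Uchl1 had 4 counts, 63.4 CPM with an interval of 17.3 to 162, all below the lowest other rat at 252 CPM. Sptan1 had 170 counts and 2693 CPM, inside the range of the others. Sarm1 had 0 counts, which allows up to 47.5 CPM and thus a level as high as in any other rat. The summed CPM of 5 neuronal markers, among them Rbfox3, Snap25 and Syt1, was 9679 in rat 6 against 2691 to 4039 in the others. Other neuronal lists were not all raised there. The sum of 3 thalamic markers was 190 CPM, against 45.7 to 81.2 CPM in the other rats. The sum of the hippocampal markers, 1346.5 CPM, lay within the range of the other rats. That of 4 parvalbumin interneuron markers was 253 CPM, against 381 to 515 CPM in the others. The part of depth and of neuronal content in these values was not tested.

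The neurofilament genes had larger differences between the library sets than between treatments. With rat 6 left out, set 2 exceeded set 1 by 1.97 times in mean CPM for Nefl, 5.96 times for Nefm, 2.66 times for Nefh and 1.42 times for Ina, and the sets did not overlap in any of these 4 genes. The sets overlapped in the other 6 members, with ratios between 0.743 for Uchl1 and 1.13 for Sptan1. Among all tested genes, 6048 of 12325 (49.1%) had sets that did not overlap, so the 4 of 10 members are near that share. By absolute log2 difference between sets, however, Nefm at 2.59 (SE 0.26) ranked 33rd of 12529 genes, Nefh at 1.42 (SE 0.16) ranked 787th and Nefl at 0.97 (SE 0.08) ranked 2342nd, against a median of 0.47.

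Cell type markers moved with the sets as well. The summed neuronal markers, all 5 above the filter, lay at 2691 to 3747 CPM in set 1 and 3722 to 4039 CPM in set 2. The 5 oligodendrocyte markers lay at 2435 to 4490.1 and 1750.4 to 2934 CPM, the 5 microglial markers at 257 to 282 and 113 to 182 CPM, and the 4 endothelial markers at 87.6 to 130 and 197 to 265 CPM. No marker of these lists was at 0 in all rats. By treatment the 5 neuronal markers spanned 2905 to 3931 CPM in blast-boldine and 2691 to 4039 CPM in blast-control rats without rat 6. The part of cell composition in the set difference of the neurofilament genes was not tested.

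**Figure D3:**
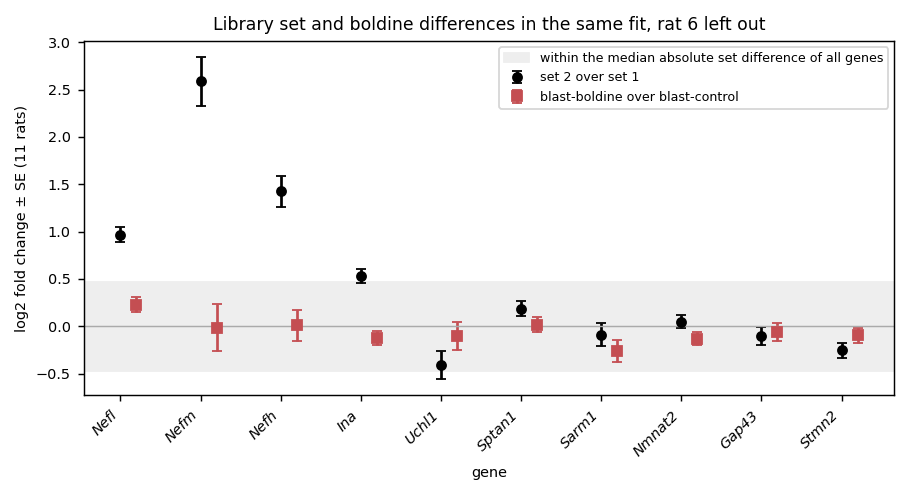
Log2 fold change (y axis, ± SE) of each gene (x axis) between library sets (black circles) and between treatments (red squares) in the same edgeR fit of 11 rats; the grey band is the median absolute set difference of all genes, 0.47. Nefl, Nefm, Nefh and Ina lay above the band for the set difference, up to 2.59 for Nefm, while all treatment estimates lay inside it.

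The chains did not keep a fixed proportion. Per kilobase, the ratio of Nefm to Nefl ran from 0.0760 to 0.255 in set 1 (median 0.106, n = 6) and from 0.302 to 0.479 in set 2 without rat 6 (median 0.384, n = 5), with no overlap. The ratio of Nefh to Nefl had medians of 0.132 and 0.190 and overlapped between the sets. The ratio of Ina to Nefl was 0.124 to 0.133 in the treated and 0.151 to 0.185 in the control rats of set 1, and 0.0865 to 0.115 against 0.109 to 0.133 in set 2. The treated rats thus had the lower ratio in set 1 without overlap, and overlapped the controls in set 2. These ratios were chosen after the values had been seen and are given as a description.

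**Figure D4:**
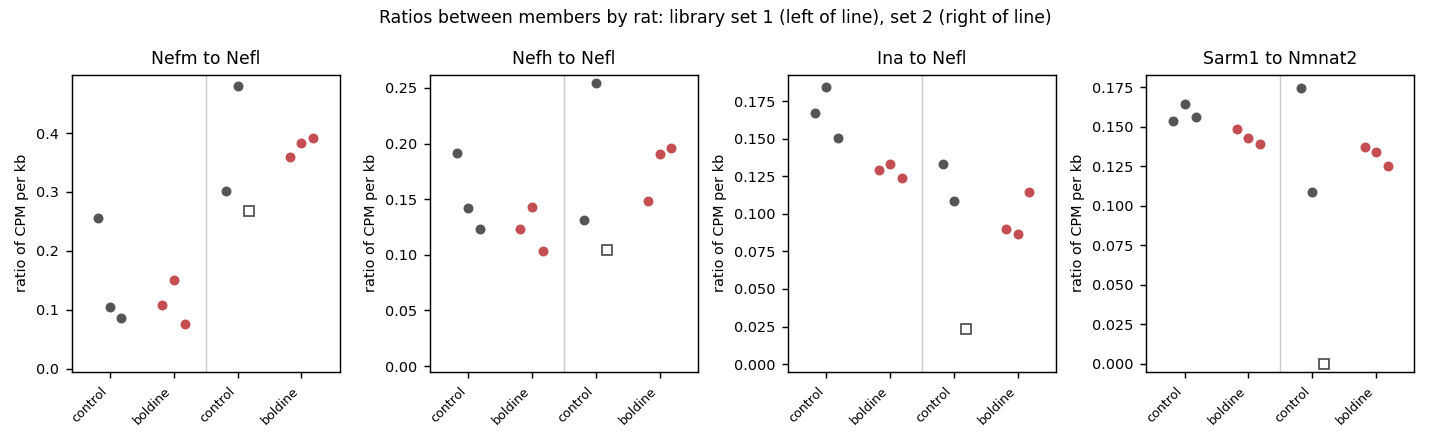
Ratio of CPM per kb between pairs of the genes (y axis) in each rat, blast-control in grey, blast-boldine in red, library set 1 left and set 2 right of the line, rat 6 as an open square. The Nefm to Nefl ratio was 0.0760 to 0.255 in set 1 and 0.302 to 0.479 in set 2 without rat 6.

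Among the injury biomarkers, the treatment differences of Uchl1 and Sptan1 were within the spread between rats. Uchl1, an abundant neuronal deubiquitinase (chr14:41485033-41495590, minus strand, 9 exonic blocks), ranged from 284 to 453 CPM with a median of 350.1 in blast-boldine and from 63.4 to 522 CPM with a median of 368 in blast-control rats. The lowest control was rat 6, and the next lowest was rat 5 at 252 CPM. Its log2 fold change was 0.04 (SE 0.31), and -0.13 (SE 0.20) without rat 6. Sptan1, which forms the membrane skeleton of the axon and is cut by calpains and caspases (chr3:13241217-13306046, plus strand, 56 exonic blocks), varied with a coefficient of variation of 10.1% over the 11 rats, against 37.0% for Nefl and 82.6% for Nefm. It ranged from 2396 to 2761 CPM with a median of 2613 in blast-boldine and from 2105 to 3134 CPM with a median of 2505 in blast-control rats. The log2 fold change was 0.02 (SE 0.12, 95% interval -0.24 to 0.28), so the interval excludes a change of 1 log2 unit in either direction. A stretch of 8 exonic bases of Sptan1 overlaps Dync2i2 on the other strand. Cleavage of spectrin is a change of protein that these counts do not measure.

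Sarm1 and Nmnat2, the opposed enzymes of axonal NAD metabolism, both had lower values in blast-boldine rats once rat 6 was left out. Sarm1 (chr10:63369456-63392822, minus strand, 9 exonic blocks) had 32.9, 35.8 and 30.1 CPM in the treated and 38.9, 39.6 and 34.9 CPM in the control rats of set 1. In set 2 it had 30.8, 29.5 and 28.5 CPM in the treated and 46.8 and 27.3 CPM in the control rats other than rat 6. All 6 treated rats lay below the median of the 5 controls, but the ranges overlapped in both sets. The control at 27.3 CPM lay below every treated rat. No share of all genes with this pattern is given, so it is a description only. The log2 fold change was -0.21 (SE 0.20) with all rats, -0.27 (SE 0.13) without rat 6 and -0.26 (SE 0.12, 95% interval -0.51 to -0.01) with library set as a covariate and rat 6 left out. The last had an unadjusted p of 0.0450 and an adjusted p of 0.898 (edgeR). The exact permutation test gave p = 0.0779 without rat 6 and p = 0.085 within the sets without rat 6.

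Nmnat2 (chr13:65105950-65277350, plus strand, 11 exonic blocks) had 68.1, 76.8 and 66.3 CPM in the treated and 77.6, 73.9 and 68.5 CPM in the control rats of set 1. In set 2 the treated rats had 68.8, 67.4 and 69.9 CPM, below the 82.3 and 77.2 CPM of the controls other than rat 6, where 3 counts made 47.5 CPM. Here too all 6 treated rats lay below the median of the 5 controls. Neither this pattern nor the separation in set 2 has a share over all genes beside it. The log2 fold change was -0.09 (SE 0.11) with all rats and -0.13 (SE 0.09) without rat 6, and with library set as a covariate and rat 6 left out it was -0.13 (SE 0.07, unadjusted p = 0.0750). The exact permutation test gave p = 0.968 with all rats, p = 0.0498 without rat 6 (462 assignments) and p = 0.035 within the sets without rat 6 (200 assignments). These were unadjusted values among 10 genes, and the adjusted p over all genes was 0.898 in the edgeR fit. Per kilobase, the Sarm1 to Nmnat2 ratio was 0.139 to 0.148 in treated and 0.154 to 0.164 in control rats of set 1. In set 2 the treated rats, at 0.125 to 0.137, lay between the controls at 0.109 and 0.174.

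RefSeq promoter entries were matched for 5 of the 10 members, Ina, Uchl1, Sptan1, Sarm1 and Nmnat2. Those of Nmnat2 (chr13:67655557-67655806, plus strand, GRCr8) and Sarm1 (chr10:63890873-63891122, minus strand, GRCr8) are shown because, without rat 6, all treated rats lay below the control median in both genes, although the ranges overlapped and neither gene passed after adjustment. These 2 promoters were thus picked after the values had been seen. Each is the 250 bases before the annotated start, 5′ to 3′, with the cAMP response half-site TGACG, or CGTCA on the other strand, in capitals.
Nmnat2: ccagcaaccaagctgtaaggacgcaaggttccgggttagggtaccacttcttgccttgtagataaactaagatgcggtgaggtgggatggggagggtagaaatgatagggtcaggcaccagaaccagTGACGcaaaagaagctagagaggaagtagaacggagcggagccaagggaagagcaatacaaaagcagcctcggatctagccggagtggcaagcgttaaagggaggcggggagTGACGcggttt
Sarm1: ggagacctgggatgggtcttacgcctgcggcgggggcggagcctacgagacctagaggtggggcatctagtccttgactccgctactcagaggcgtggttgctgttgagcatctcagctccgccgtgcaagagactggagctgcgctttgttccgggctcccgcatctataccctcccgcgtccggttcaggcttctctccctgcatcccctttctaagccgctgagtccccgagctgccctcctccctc
The Nmnat2 window held 2 half-sites, 123 and 11 bases before the start, and the Sarm1 window held 0. Of 33465 rat promoters of this length, 18.2% held at least 1 half-site and 2.86% held 2 or more. The Sptan1 window held 1 half-site, and those of Ina and Uchl1 held 0. The GC content was 54.0% for Nmnat2 and 63.6% for Sarm1. A match of letters describes the window and does not show that a factor binds there.

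The treatment differences of the growth-associated members Gap43 and Stmn2 were also within the spread between rats. Gap43, a protein of growth cones and presynaptic terminals (chr11:58376371-58470047, plus strand, 3 exonic blocks), ranged from 108 to 134 CPM with a median of 122 in blast-boldine and from 102 to 206 CPM with a median of 131 in blast-control rats. The highest value was that of rat 6, from 13 counts, and the groups overlapped with and without it. The log2 fold change was -0.14 (SE 0.14), and -0.08 (SE 0.11) without rat 6. Stmn2, a tubulin-binding protein that maintains axons (chr2:93204690-93252011, minus strand, 5 exonic blocks), ranged from 189.7 to 254 CPM with a median of 225 in blast-boldine and from 127 to 294 CPM with a median of 233 in blast-control rats. The lowest control was rat 6, from 8 counts. The log2 fold change was -0.04 (SE 0.16), and -0.12 (SE 0.12) without rat 6. In set 2 without rat 6 Stmn2 stood at 0.826 and Gap43 at 0.919 of its mean in set 1.

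Of the genes that work with the members, few differed and none after adjustment (smallest adjusted p 0.889 by edgeR in any of the fits named here). Among 10 partners of the filaments, 1 was higher and 1 lower at an unadjusted p under 0.05 with all 12 rats. The higher one was Vim, the intermediate filament of glia and vessels, at 83.9 ± 16.0 CPM in blast-boldine and 52.1 ± 19.9 CPM in blast-control rats (log2 fold change 0.55, SE 0.19, edgeR unadjusted p = 0.0122). Without rat 6, which had 1 count, the control mean was 59.3 ± 10.1 CPM and the log2 fold change 0.50. In set 1 the treated rats had 61.4, 80.4 and 85.1 CPM and the controls 48.0, 54.5 and 54.3 CPM. In set 2 they had 80.3, 111 and 85.3 CPM against 68.6 and 71.2 CPM in the controls other than rat 6. The treated rats were thus above the controls in either set without overlap, as were 43 of the 12529 genes tested without rat 6. The lower one was Prph, the intermediate filament of peripheral and some central neurons, at 3.31 ± 1.38 and 5.36 ± 4.15 CPM (log2 fold change -0.95, SE 0.37, edgeR unadjusted p = 0.0218). The median over the 10 partners was -0.09 with all rats and 0.09 without rat 6. With library set as a covariate it was -0.08 with rat 6 kept and -0.02 with rat 6 left out. Leaving out rat 6 thus turned its sign only where library set was not a covariate.

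The other lists held fewer differences. Among 13 of 14 genes of the spectrin skeleton and calpain system that were tested, 0 passed an unadjusted p of 0.05 with all rats, the smallest being that of Capn5 (log2 fold change -0.21, SE 0.15). With library set as a covariate and rat 6 left out, the axon initial segment spectrin Sptbn4 was lower at -0.23 (SE 0.10, edgeR unadjusted p = 0.0340). Among 17 of 18 genes of the axon degeneration programme, 0 passed in either fit. With all rats the smallest p there was that of the stress kinase Map2k4, at 90.7 ± 5.22 against 82.3 ± 9.44 CPM (log2 fold change 0.13, SE 0.11). Among 20 of 21 stathmins and growth-associated genes, 0 passed with all rats and 2 were lower with library set as a covariate and rat 6 left out. These were Marcksl1, a regulator of actin, at -0.44 (SE 0.14, edgeR unadjusted p = 0.00636), and Dpysl5, a collapsin response mediator of growth cones, at -0.21 (SE 0.08, edgeR unadjusted p = 0.0183). Among 10 ubiquitin hydrolases and ubiquitin genes none passed. Among 10 other injury biomarker genes none passed, and 9 of 10 had a negative log2 fold change with a median of -0.06 against 0.00 over all genes. Without rat 6 that median was -0.16, and with library set as a covariate as well it was -0.14. The smallest p in that list was that of the calcium sensor Vsnl1, at 337 ± 19.9 against 408 ± 98.0 CPM (-0.25, SE 0.15). Rat 6 had 586 CPM of Vsnl1 from 37 counts, and without it the controls averaged 373 ± 50.5 CPM and the log2 fold change was -0.15 (SE 0.10).

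**Figure D5:**
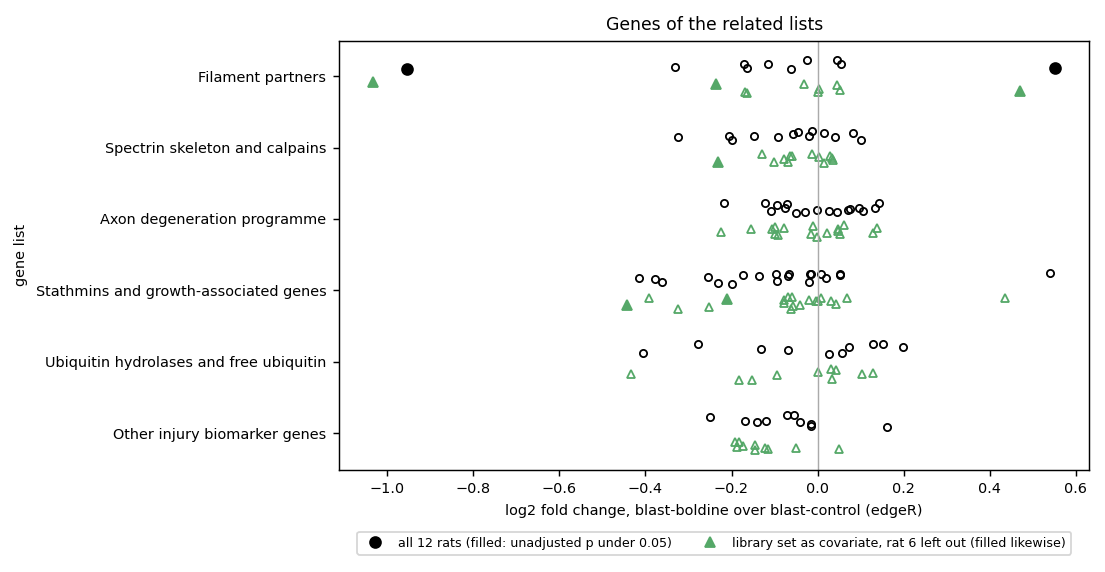
Log2 fold change of blast-boldine over blast-control rats (x axis) for each tested gene of 6 related lists (y axis), with all 12 rats as black circles and with library set as covariate and rat 6 left out as green triangles; filled symbols have an unadjusted p under 0.05. Vim at 0.55 and Prph at -0.95 were the 2 filled circles.

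Once the means of treatment and library set had been removed, the members did not all vary in the same direction across the 11 deeper libraries. The median Pearson r over the 45 pairs of members was 0.06, with a range of -0.90 for Nefh with Sptan1 to 0.93 for Uchl1 with Sptan1. That median covers strong correlations of either sign. Nefm, Nefh and Gap43 had r = 0.76 to 0.85 with one another. Each of these genes had r between -0.90 and -0.77 with Uchl1 and with Sptan1. Blast-control rat 1 was the highest of set 1 in Nefm, Nefh and Gap43 and the lowest in Uchl1 and Sptan1. In set 2, control rat 5 exceeded control rat 4 in Nefm, Nefh and Gap43 and lay below it in Uchl1 and Sptan1. The part of these single rats in the correlations was not tested. Nefm and Nefh had r = 0.79, while Nefl with Nefm had r = -0.12, although the unadjusted r of that pair, which holds the set difference, was 0.91. Sarm1 and Nmnat2 had r = 0.54. The points share library depth and dissection, and these values are a description.

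The genes most like 6 of the members were sought among 10476 genes on the same scale. For Nefl they were the protocadherin Pcdh20 (r = 0.97), the sodium-activated potassium channel Kcnt2 (r = 0.96) and Prss35 (r = 0.93). Nefm was most like the nucleolar and RNA-binding protein genes Nop2 (r = 0.99), Hnrnpa2b1 (r = 0.98) and Ncl (r = 0.98), none of them a filament gene. For Nefh they were Chga, which codes for chromogranin A, Setd3 and Tlk1, each at r = 0.97. Uchl1 was most like Phyhip, the neuronal calcium sensor Hpca and Ncdn, each at r = 0.99. Gap43 was closest to Bcap29 (r = 0.96), the glutamate receptor Grm8 (r = 0.94) and the cadherin Cdh7 (r = 0.93), and Stmn2 to Pick1 (r = 0.95), Pik3r4 (r = 0.92) and Eda (r = 0.91). Among these 6 members, no gene was shared between the lists of the 3 closest.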

How the data were processed

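The authors extracted RNA with TRIzol, prepared stranded total RNA libraries, removed PCR duplicates and trimmed reads with HTStream, aligned reads with STAR (2.7.11b) to mRatBN7.2 and counted them per gene with featureCounts (Subread 2.0.1). The deposited values are raw counts per gene, and every column was mapped to a rat. From these counts, TMM-scaled CPM and two-sided quasi-likelihood tests were computed with edgeR (4.0.16, R 4.3.3; filterByExpr, minimum count 10; Benjamini-Hochberg adjustment over all genes), treatment being the only term. DESeq2 (1.42.0) and limma-voom (3.58.1) were alternatives, beside other size factors, no filter, library set as a covariate and leaving out each rat. Exact permutation tests used the difference in mean log2 CPM (prior count 2) over all 924 assignments. The edgeR test was tried on simulated counts that had no library sets. Their dispersion was set below the common dispersion of 0.104 in the fit of all rats. The members and lists were chosen with earlier results of these data known. All members were named. Of each list, genes with an unadjusted p under 0.05 in the fit of all rats were named, failing any the smallest p, plus those under 0.05 with library set as a covariate and rat 6 left out. Some genes that this rule names are not reported here. The 3 most correlated genes with a mean of at least 5 CPM were named for 6 members. Promoters came from RefSeq (GRCr8), another build than that of the counts. Intervals and floors cover counting error only.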

Additional observations from a re-analysis of the deposited data

Results flagged for a closer look

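Each member was checked in 3 groupings (blast-boldine, blast-control, and blast-control without rat 6) for a library far from the rest (Dixon's criterion), and 4 of 30 checks were met. Chance gives about 1 in 20 for a single check. The checks share rats and are not independent, so their number cannot be set against that rate. In 3 of the 4 met, the same shallow library of blast-control rat 6 stood above the other controls, with 7445 CPM of Nefl, 3009.8 CPM of Nefm and 1473 CPM of Nefh. The fourth was blast-boldine rat 32, whose 76.8 CPM of Nmnat2 was the highest of its group. The interaction of treatment with library set had no unadjusted p under 0.292 and no adjusted p under 0.892 for any of the 10 members (edgeR).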

How the results depend on the processing

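No paired analysis was possible because rats of the 2 groups carry different numbers. No alternative gave any member an adjusted p under 0.05, and the log2 fold changes of Ina, Sarm1, Nmnat2 and Gap43 were negative under all 22 alternatives. The number of members at an unadjusted p under 0.05 moved from 0 to 2 with library set as a covariate and rat 6 left out, by edgeR and by DESeq2.

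With limma-voom the log2 fold change turned to 0.10 for Nefl, 0.18 for Nefm, 0.096 for Nefh and -0.014 for Uchl1. With library set as a covariate and rat 6 left out it turned to 0.23 for Nefl, 0.011 for Nefh and -0.11 for Uchl1 by edgeR, and to 0.23, 0.014 and -0.11 by DESeq2. With library set alone Uchl1 turned to -0.035, and with upper-quartile size factors Sptan1 to -0.011. Leaving out each rat in turn gave -0.98 to 0.34 for Nefl, -0.91 to 0.37 for Nefm, -0.61 to 0.21 for Nefh, -0.13 to 0.18 for Uchl1, -0.0012 to 0.089 for Sptan1 and -0.12 to 0.056 for Stmn2. The positive values of Nefl, Nefm and Nefh came from leaving out rat 6.

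In the exact permutation test without rat 6 the difference in mean log2 CPM turned to 0.33 for Nefl, 0.33 for Nefm, 0.19 for Nefh, -0.11 for Uchl1, -0.25 for Sarm1 (from 1.14, with rat 6 at 0 counts) and -0.12 for Stmn2, and for Nmnat2 it was -0.13 (exact p = 0.0498). Within the sets without rat 6, an alternative chosen after seeing the data, the differences were 0.23, 0.081, 0.065, -0.081, -0.24 and -0.089 in that order, and -0.14 for Nmnat2 (exact p = 0.035).

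The filament partners at an unadjusted p under 0.05 numbered 4 with library set as a covariate. The spectrin list had 1 such gene with library set as a covariate and rat 6 left out. The growth-associated list had 2 with library set as a covariate, 2 without rat 6, 2 with both, and 1 by DESeq2. Over all genes the count at an unadjusted p under 0.05 was 132, against 474 with library set as a covariate 670 with rat 6 also left out, 254 with no filter and 85 by DESeq2. Leaving out each rat gave 85 (rats 12 and 17) to 214 (rat 5), with 87 for rat 1. The cause was not tested. In rat 6 the depth limits any value under 47.5 CPM.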
